A study of Homo sapiens with 26 samples.

Results

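A set of 9 red cell genes was followed by RNA sequencing in TF-1, a human erythroleukemia line that needs an added cytokine such as GM-CSF to grow. They encode enzymes of the mature red cell (CA1, CA2, PKLR, BPGM, PRDX2, SELENBP1), the blood-cell nuclear protein HEMGN, and the tripartite-motif proteins TRIM10 and TRIM58. All 9 were found among the 57773 genes of the count table by their Ensembl identifiers, and all 9 passed the filter on low counts. The clones were TET2 knockout (TET2 -/-, here KO; clones F4 and A12) or wild-type (TET2 +/+, here WT; clones A7 and C4). TET2 is an enzyme that oxidises methylated cytosine in DNA. Cells received 5-azacytidine (Aza), a drug that traps and depletes DNA methyltransferases, at 200 nM once a day for 3 days, or the solvent DMSO. They were harvested before treatment or 72 h or 264 h from its start. KO groups held 2 libraries in Aza at each time, 3 in DMSO at 72 h, 4 in DMSO at 264 h, 2 before treatment and 2 more of a second batch labelled both pre-treatment and DMSO. Every WT group held 2 libraries. Each genotype is represented by 2 clones, all derived from TF-1, with 1 culture per clone, condition and batch. In the comparisons of treatment, of time and of the response in KO against WT, a clone term is in the model. Their p-values therefore measure the spread left once mean clone differences are removed. Where the levels of KO and WT are compared, the p-values measure the spread between these clones and cultures.

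Late red cell precursors build up a small set of enzymes before they lose the nucleus. Carbonic anhydrases hydrate CO2, and the red cell form of pyruvate kinase completes glycolysis. BPGM makes the bisphosphoglycerate that lowers the oxygen affinity of hemoglobin, and PRDX2 removes peroxide. HEMGN is a nuclear protein of blood-forming cells, and TRIM58 is a ubiquitin ligase known from mouse erythroblasts to act on dynein during enucleation.

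Depth ran from 24992192 to 40187322 counts per library (median 27477937), so the 0-count limit of 3 counts lay near 0.1 CPM (read counts scaled to 1000000 per library), and this limit covers counting error only. The library of clone F4 at 72 h in DMSO from batch 1 failed quality control per its label and was left out, so clone F4 at that time has DMSO values from batch 2 alone. TET2 RNA was present throughout, at 24.9 to 46.4 CPM in the 15 KO libraries and 22.5 to 30 CPM in the 10 WT libraries, so the count over all its exons does not check the genotype labels. The defining erythroid markers were present, with a summed level of 2132 to 7328 CPM over 21 genes and none at 0 throughout. SLC4A1 among them had a median under 1 CPM. In DMSO at 264 h the sum was 2132 to 3284 CPM in KO and 4512 to 4759 CPM in WT. The WT libraries from before treatment went against their clone labels. Their deviations from the group mean correlated with those of later libraries of the same label at -0.423 to -0.368, against 0.368 to 0.430 among the later WT libraries and 0.461 to 0.529 among the KO libraries of batch 1. SELENBP1 shows this plainly: 44.2 CPM in the pre-treatment library labelled C4 and 2.68 CPM in the one labelled A7, while later A7 libraries held 33.2 to 58.2 CPM and later C4 libraries 2.46 to 8.29 CPM. Counts of changed members from the model of all 25 libraries are therefore given with and, where possible, without these 2 libraries. Counts for the other pathway and lineage lists are given with them only.

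Upstream sequence is shown for 3 genes that rose together in Aza at 72 h (PKLR, HEMGN and TRIM10, below) and for BPGM, which did not. RefSeq (GRCh38.p14) start sites were used for 6 of the 9 genes, with 8 windows of the 250 bases before a start. CA1 and CA2 were left out of this step, and no window was available for SELENBP1. The motif and CG counts below therefore do not cover these genes. Capitals mark the motif GATAA, bound by GATA factors, on either strand (TTATC is its reverse complement). GATAA stood in 20.4% of all 35116 windows of that length and in 2 or more copies in 3.87%. PKLR has an upstream start used in red cells and a downstream one used in liver, and the upstream one is printed. HEMGN has 2 listed starts, and gene counts do not tell which was used.
PKLR upstream start, chr1:155301439-155301688, minus strand: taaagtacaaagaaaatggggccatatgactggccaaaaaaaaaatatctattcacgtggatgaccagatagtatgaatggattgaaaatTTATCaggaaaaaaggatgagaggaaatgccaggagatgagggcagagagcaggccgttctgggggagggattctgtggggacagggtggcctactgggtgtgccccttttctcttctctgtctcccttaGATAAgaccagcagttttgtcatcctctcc
HEMGN first start, chr9:97944853-97945102, minus strand: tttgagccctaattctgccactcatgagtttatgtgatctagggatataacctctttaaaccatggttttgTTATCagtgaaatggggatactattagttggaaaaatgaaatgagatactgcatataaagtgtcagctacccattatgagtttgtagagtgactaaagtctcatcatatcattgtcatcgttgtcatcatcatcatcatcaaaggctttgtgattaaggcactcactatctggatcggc
HEMGN second start, chr9:97938173-97938422, minus strand: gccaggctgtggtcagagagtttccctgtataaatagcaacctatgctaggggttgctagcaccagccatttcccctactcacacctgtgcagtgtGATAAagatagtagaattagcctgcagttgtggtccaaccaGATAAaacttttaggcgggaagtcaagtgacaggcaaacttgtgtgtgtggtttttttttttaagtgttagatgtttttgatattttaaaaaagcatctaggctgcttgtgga
TRIM10, chr6:30161212-30161461, minus strand: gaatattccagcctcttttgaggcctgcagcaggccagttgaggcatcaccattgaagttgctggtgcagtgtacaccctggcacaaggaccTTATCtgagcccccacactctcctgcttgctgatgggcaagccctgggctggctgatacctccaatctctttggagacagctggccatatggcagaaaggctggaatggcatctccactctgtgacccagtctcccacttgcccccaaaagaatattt
BPGM, chr7:134646603-134646852, plus strand: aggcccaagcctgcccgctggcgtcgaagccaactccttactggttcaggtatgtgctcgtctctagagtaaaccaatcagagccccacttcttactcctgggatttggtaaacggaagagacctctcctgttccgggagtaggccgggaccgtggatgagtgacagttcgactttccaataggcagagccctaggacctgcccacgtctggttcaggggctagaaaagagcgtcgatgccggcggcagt
The PKLR upstream window held 2 copies of GATAA and the HEMGN second window also held 2. The HEMGN first window, TRIM10 and TRIM58 held 1 each, while BPGM, PRDX2 and the downstream PKLR window held none. CG dinucleotides, the sites that DNA methyltransferases act on, numbered 2 in the PKLR upstream window, 2 and 1 in the HEMGN windows and 0 in TRIM10, against a median of 11 over all windows. TRIM58 held 12, BPGM 14 and PRDX2 38. These counts describe the letters of each window only.

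The members spanned a wide range of levels. On the per-length scale (TPM, computed from the counts and exon lengths so that each library sums to 1000000), CA1 had a median of 213 TPM over 25 libraries and PRDX2 of 183 TPM, with CA1 above PRDX2 in 17 of the 25. CA2 had a median of 35.7 TPM, TRIM58 29.9, TRIM10 21.3 and BPGM 20.3 TPM. SELENBP1, HEMGN and PKLR were low, with medians of 3.42, 1.63 and 1.48 TPM. The low genes varied most: the highest CPM was 333 times the lowest for HEMGN, 59.2 times for PKLR and 43.2 times for SELENBP1, but 1.43 times for BPGM.

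In the deposited annotation (hg19), CA1 (ENSG00000133742.9) lies at chr8:86239837-86291243 and CA2 (ENSG00000104267.5) at chr8:86376081-86393722. PKLR (ENSG00000143627.13) lies at chr1:155259630-155271225, SELENBP1 (ENSG00000143416.16) at chr1:151336778-151345209 and TRIM58 (ENSG00000162722.8) at chr1:248020501-248041507. HEMGN (ENSG00000136929.8) lies at chr9:100689073-100707138, TRIM10 (ENSG00000204613.6) at chr6:30119722-30128711, BPGM (ENSG00000172331.7) at chr7:134331560-134364565 and PRDX2 (ENSG00000167815.7) at chr19:12907634-12912694. Reads were counted over all annotated exons of a gene, without strand. TRIM58 shares 7.04% of its exon bases with OR2W3, and PKLR shares 0.382% (10 bases) with HCN3 on the opposite strand. PRDX2 shares 14.0% with an antisense gene that had no counts in any library. Reads in those stretches cannot be assigned with certainty. At 72 h, HCN3 averaged 1.84 CPM in Aza and 0.751 CPM in DMSO in KO cells. In WT cells it averaged 3.77 and 1.36 CPM.

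**Figure D1:**
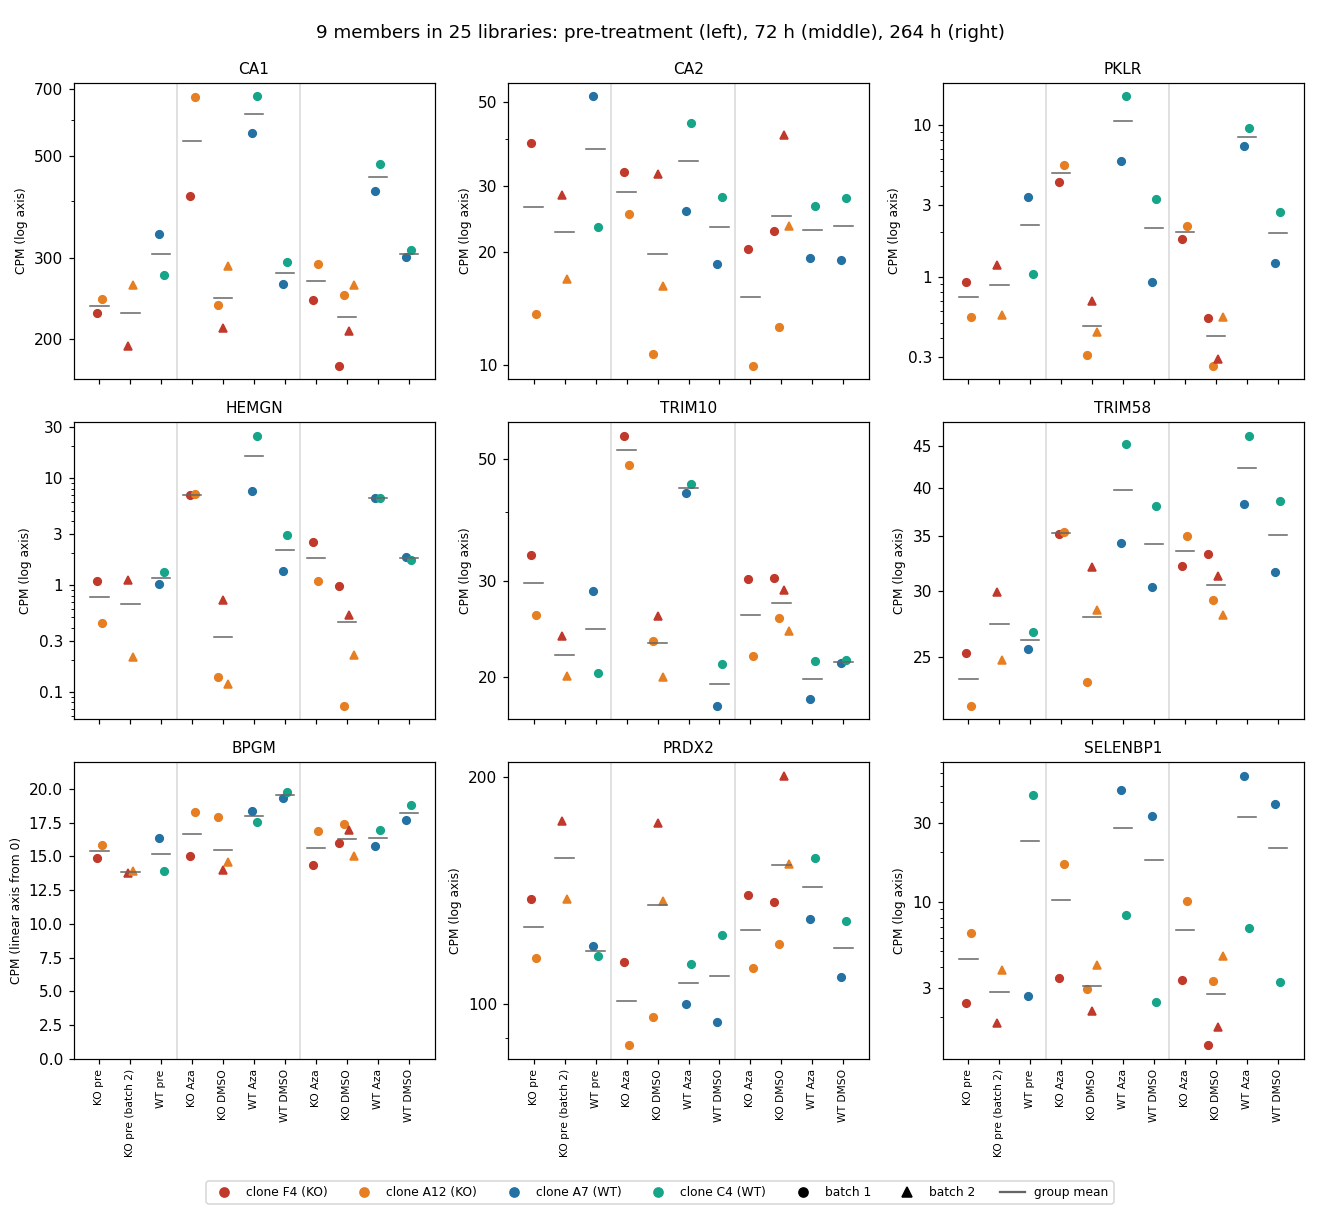
Level of each of the 9 genes in CPM in the 25 libraries (y axis logarithmic except for BPGM, which starts at 0), by genotype, treatment and time, colored by clone and shaped by batch, with a line at the group mean. CA1, PKLR, HEMGN and TRIM10 stand higher in Aza than in DMSO at 72 h in both genotypes, while BPGM stays between 13.8 and 19.8 CPM.

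The first comparison asked which members changed at 72 h of Aza. In KO cells, 5 of 9 members rose and none fell (CA1, PKLR, HEMGN, TRIM10 and TRIM58), where 11.6% of the 18391 genes tested rose and 8.47% fell. In WT cells, 4 of 9 rose (CA1, PKLR, HEMGN and TRIM10) and none fell, where 9.26% of genes rose and 9.04% fell. A gene counts as changed at an adjusted p under 0.05 in edgeR's quasi-likelihood test with Benjamini-Hochberg adjustment over all genes tested, and every adjusted p below is of that kind. The median log2 fold change of the 9 members was 1.08 in KO and 0.83 in WT, beside 0.01 and 0.00 over all genes. Without the 2 WT pre-treatment libraries, 7 members rose in KO and 6 in WT, CA2 and SELENBP1 being added in both, while 26.1% and 24% of genes changed in either direction.

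CA1, the most abundant carbonic anhydrase of the red cell, was at 409 and 671 CPM in the KO libraries in Aza, against 211, 237 and 288 CPM in the KO libraries in DMSO. In WT cells it was at 562 and 674 CPM in Aza, against 263 and 294 CPM in DMSO. Aza and DMSO libraries did not overlap in either genotype. The rise was 2.49-fold in KO (log2 1.31, SE 0.14, adjusted p = 1.17e-05) and 2.22-fold in WT (log2 1.15, SE 0.13, adjusted p = 2.49e-05).

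HEMGN had the largest fold change among the 9 members in both genotypes. It was at 6.98 and 7.08 CPM in KO cells in Aza, against 0.120, 0.137 and 0.729 CPM in DMSO, where the low values are 3 and 4 counts in clone A12. In WT cells it was at 7.60 and 24.9 CPM in Aza, against 1.35 and 2.96 CPM in DMSO. Aza libraries again lay above all DMSO libraries of their genotype. The log2 fold change was 4.30 in KO (SE 0.79, adjusted p = 0.00195) and 2.84 in WT (SE 0.52, adjusted p = 0.00214). Clone by clone, the Aza level over the DMSO level was 9.57 in F4 (95% counting interval 6.18 to 15.5), 51.6 in A12 (19.8 to 191), 5.62 in A7 (3.93 to 8.25) and 8.43 in C4 (6.70 to 10.7). The intervals are exact and cover counting error only. At 72 h, here and below, the F4 ratios set Aza of batch 1 against DMSO of batch 2. The ratios of the other clones are within batch 1.

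PKLR encodes the pyruvate kinase of red cells and liver, which catalyses the last step of glycolysis. It was at 4.26 and 5.51 CPM in KO cells in Aza, against 0.309, 0.438 and 0.697 CPM in DMSO. WT cells held 5.85 and 15.5 CPM in Aza, against 0.939 and 3.28 CPM in DMSO. The log2 fold change was 3.54 in KO (SE 0.84, adjusted p = 0.0104) and 2.32 in WT (SE 0.59, adjusted p = 0.0169). By clone, the Aza level over the DMSO level was 6.11 in F4 (counting interval 3.83 to 10.2), 17.8 in A12 (9.15 to 39.7, from 154 counts in Aza and 9 in DMSO), 6.23 in A7 (4.07 to 9.92) and 4.73 in C4 (3.76 to 6.00). PKM, the pyruvate kinase of most other cells, supplied nearly all pyruvate kinase RNA. Per length, PKLR made up 1.12% and 1.57% of PKLR plus PKM in KO cells in Aza, against 0.0736% to 0.149% in KO cells in DMSO. In WT cells its share was 1.70% and 4.45% in Aza, against 0.245% and 0.811% in DMSO.

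TRIM10, a tripartite-motif protein of red cell precursors, rose by a similar factor in every clone. It was at 48.7 and 55.2 CPM in KO cells in Aza, against 20.0, 23.3 and 25.8 CPM in DMSO, and at 43.5 and 45.0 CPM in WT cells in Aza, against 17.7 and 21.2 CPM in DMSO. The log2 fold change was 1.05 in KO (SE 0.12, adjusted p = 1.41e-06) and 1.18 in WT (SE 0.12, adjusted p = 1.69e-07). Single clones gave ratios of 2.09 to 2.45. TRIM58 was at 35.2 and 35.4 CPM in KO cells in Aza, against 23.3, 28.4 and 32.1 CPM in DMSO, a log2 rise of 0.37 (SE 0.11, adjusted p = 0.0183). WT cells held 34.3 and 45.2 CPM in Aza, against 30.4 and 38.1 CPM in DMSO, where the groups overlapped and the log2 difference of 0.21 (SE 0.10) was not called (adjusted p = 0.163).

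CA2 and SELENBP1 differed widely between clones. CA2, the fast carbonic anhydrase of red cells and many other tissues, was at 25.2 (A12) and 32.6 CPM (F4) in KO cells in Aza, against 10.7 and 16.3 (A12) and 32.2 CPM (F4) in DMSO. Within batch 1, the Aza level over the DMSO level was 2.35 in A12, 1.38 in A7 and 1.58 in C4. In F4 the ratio of 1.02 sets Aza of batch 1 against DMSO of batch 2, so treatment and batch cannot be told apart. In DMSO at 264 h, F4 held 22.8 CPM of CA2 in batch 1 and 41.0 CPM in batch 2. Without A12, with batch in the model, the log2 fold change in KO was 0.85. The CA2 log2 fold changes of 1.08 in KO (SE 0.42, adjusted p = 0.0934) and 0.57 in WT (SE 0.38, adjusted p = 0.364) were not called. Without the WT pre-treatment libraries they were 1.08 (SE 0.20, adjusted p = 0.00118) and 0.56 (SE 0.18, adjusted p = 0.0364), both called. SELENBP1, a selenium-binding methanethiol oxidase abundant in red cells, was at 3.43 (F4) and 17.0 CPM (A12) in KO cells in Aza, against 2.16 (F4), 2.95 and 4.14 CPM (A12) in DMSO. In WT cells it was at 47.4 (A7) and 8.29 CPM (C4) in Aza, against 33.2 (A7) and 2.46 CPM (C4) in DMSO. Each clone was higher in Aza, by 1.43 (A7) to 5.75 times (A12). Its log2 fold changes of 2.13 in KO (SE 1.5, adjusted p = 0.373) and 0.83 in WT (SE 1.18, adjusted p = 0.707) were not called, and without the WT pre-treatment libraries 2.18 (SE 0.35, adjusted p = 0.000519) and 0.89 (SE 0.26, adjusted p = 0.0281) were.

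**Figure D2:**
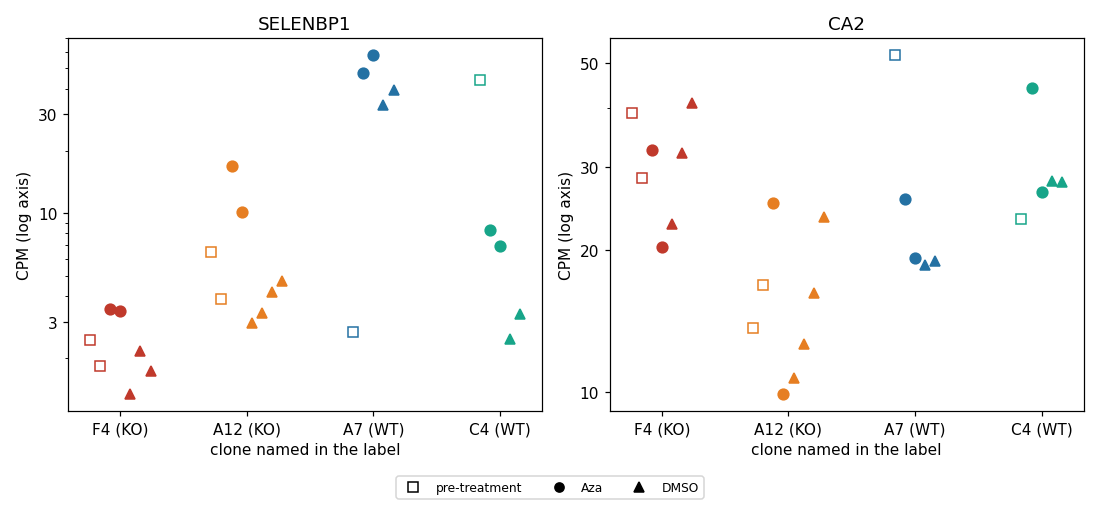
SELENBP1 and CA2 in CPM (log y axis) for every library, by the clone named in its label, with squares for pre-treatment, circles for Aza and triangles for DMSO. The SELENBP1 squares of A7 (2.68 CPM) and C4 (44.2 CPM) lie among the later libraries of the other WT clone.

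BPGM and PRDX2 were not called at 72 h in either genotype. BPGM was at 15.0 and 18.3 CPM in KO cells in Aza, against 14.0, 14.6 and 18.0 CPM in DMSO (log2 0.03, SE 0.12, adjusted p = 0.909). WT cells held 17.6 and 18.4 CPM in Aza, against 19.3 and 19.8 CPM in DMSO (log2 -0.12, SE 0.11, adjusted p = 0.52). PRDX2, a peroxide-reducing peroxiredoxin, was at 88.1 and 114 CPM in KO cells in Aza, against 96.0, 137 and 174 CPM in DMSO. The 2 higher DMSO values are of batch 2, in which all 6 libraries held 137 to 201 CPM, and with batch in the model the log2 difference was -0.13 (SE 0.08, adjusted p = 0.285). WT libraries, all of batch 1, were at 100.1 and 113 CPM in Aza, against 94.5 and 123 CPM in DMSO (log2 -0.03, SE 0.07, adjusted p = 0.872).

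**Figure D3:**
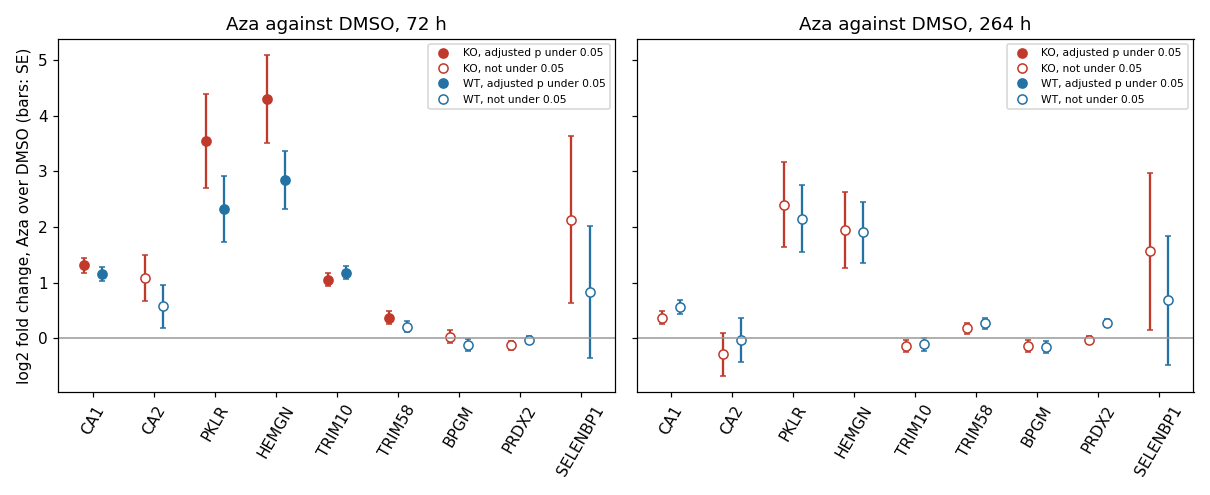
Log2 fold change of each member, Aza over DMSO, at 72 h (left) and 264 h (right), with KO in red left of WT in blue. Bars are standard errors, and filled points have an adjusted p under 0.05. At 72 h, 5 KO points and 4 WT points are filled, and at 264 h none is.

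Leaving out a KO clone lowered the number of calls over all genes as well as over the members. Without A12, where F4 has Aza from batch 1 and DMSO from batch 2, 0 of 9 members and 411 of 18801 genes were called at 72 h. The log2 fold change there was 1.19 for CA1 (adjusted p = 0.0693), 1.00 for TRIM10 (adjusted p = 0.166), 2.35 for HEMGN, 1.70 for PKLR and 0.02 for TRIM58. Without F4, 4 members and 1708 of 18992 genes were called, with log2 fold changes of 1.42 for CA1, 1.08 for TRIM10, 6.05 for HEMGN, 4.27 for PKLR and 0.49 for TRIM58. Within batch 1 alone, where A12 gives the only DMSO library, 4 of the 5 members and 2273 of 19098 genes were called, and PKLR had a log2 fold change of 3.95 (adjusted p = 0.0892). In WT within batch 1, PKLR was likewise not called (log2 2.33, adjusted p = 0.058).

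Whether KO and WT cells responded differently was tested as an interaction. At 72 h, 0 of 9 members and 0 of 18391 genes were called (0% of genes), with 0 members and 631 genes at an unadjusted p under 0.05, and DESeq2 also called 0 members and 0 genes. Without the WT pre-treatment libraries, edgeR again called 0 members and 0 genes, with 977 genes and 2 members at an unadjusted p under 0.05, SELENBP1 (log2 1.29, SE 0.44) and PKLR (log2 1.2, SE 0.58). With all 25 libraries, the KO effect exceeded the WT effect by 1.47 on the log2 scale for HEMGN (SE 0.99) and by 1.21 for PKLR (SE 1.05). Both differences took the opposite sign without clone A12, at -0.49 for HEMGN and -0.63 for PKLR. At 264 h, 0 members and 0 genes were called in the interaction by edgeR and by DESeq2 alike, with 571 genes at an unadjusted p under 0.05. Among them was 1 member, PRDX2, whose effect was lower in KO than in WT by a log2 difference of -0.29 (SE 0.10, unadjusted p = 0.0078, adjusted p = 1). Leaving out the WT pre-treatment libraries likewise gave 0 calls, with 841 genes and 1 member at an unadjusted p under 0.05.

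At 264 h, no member was called between Aza and DMSO in either genotype, where 0.0979% of genes were called in KO and 0.5% in WT. At an unadjusted p under 0.05 in edgeR, there were 3 members and 1188 genes in KO and 5 members and 1467 genes in WT. DESeq2 called 0 members and 33 genes in KO, and 1 member (CA1) and 149 genes in WT. Without the WT pre-treatment libraries, PKLR was called in KO, and PKLR, CA1 and PRDX2 were called in WT, all higher in Aza, where 0.481% and 1.94% of genes were called.

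PKLR, HEMGN and CA1 were still higher in Aza in all 4 clones at 264 h. PKLR was at 1.79 and 2.17 CPM in KO cells in Aza, against 0.262 to 0.551 CPM in the 4 KO libraries in DMSO, and at 7.26 and 9.59 CPM in WT cells in Aza, against 1.24 and 2.70 CPM in DMSO. Its log2 fold change was 2.40 in KO (SE 0.77, adjusted p = 0.596) and 2.15 in WT (SE 0.60, adjusted p = 0.219). Without the WT pre-treatment libraries it was 2.40 (SE 0.43, adjusted p = 0.00824) and 2.20 (SE 0.30, adjusted p = 0.000143). HEMGN was at 1.11 (A12) and 2.52 CPM (F4) in KO cells in Aza, against 0.0748 and 0.220 (A12) and 0.527 and 0.973 CPM (F4) in DMSO. In A12 the ratio within batch 1 rests on 29 counts in Aza and 2 in DMSO, which gives 14.8 with a counting interval of 3.74 to 128. In WT cells HEMGN was at 6.53 and 6.58 CPM in Aza, against 1.74 and 1.82 CPM in DMSO, with a log2 fold change of 1.90 (SE 0.54, adjusted p = 0.228). CA1 was at 243 and 292 CPM in KO cells in Aza, against 175, 208, 249.7 and 263 CPM in DMSO, so those groups overlapped. In WT cells it was at 421 and 482 CPM in Aza, against 301 and 312 CPM in DMSO (log2 0.56, SE 0.13, adjusted p = 0.0891).

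TRIM10 groups lay close together or overlapped. It was at 21.8 and 30.2 CPM in KO cells in Aza, against 24.3 to 30.4 CPM in DMSO, and at 18.3 and 21.4 CPM in WT cells in Aza, against 21.2 and 21.5 CPM in DMSO. The log2 differences were -0.14 (SE 0.11) and -0.11 (SE 0.12). CA2 and BPGM were also close to their DMSO levels, with log2 differences of -0.29 to -0.03 and -0.16 to -0.14. PRDX2 was at 130 and 156 CPM in WT cells in Aza, against 108 and 129 CPM in DMSO (log2 0.27, SE 0.07, adjusted p = 0.124). In KO cells PRDX2 was at 111 and 139 CPM in Aza, against 120 and 137 CPM in DMSO in batch 1 and 153.5 and 201 CPM in batch 2. With batch in the model its log2 difference in KO was -0.03 (SE 0.07, adjusted p = 0.986). SELENBP1 was higher in Aza in each clone, by 1.48 (A7) to 3.07 times (A12), with log2 fold changes of 1.56 in KO (SE 1.41) and 0.68 in WT (SE 1.16). TRIM58 had log2 differences of 0.18 in KO (SE 0.10) and 0.27 in WT (SE 0.10).

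Between the harvests, Aza libraries at 264 h were set against Aza libraries at 72 h. In KO cells, CA1, HEMGN and TRIM10 fell and PRDX2 rose, 3 of 9 and 1 of 9 members where 10.7% of genes fell and 9.79% rose. In WT cells, CA1 and TRIM10 fell and PRDX2 rose, where 10.1% of genes fell and 10.3% rose. TRIM10 decreased by 1.01 on the log2 scale in KO (SE 0.12, adjusted p = 1.11e-06) and decreased by 1.16 in WT (SE 0.12, adjusted p = 1.89e-07). CA1 decreased by 0.99 in KO (SE 0.13, adjusted p = 9.11e-05) and decreased by 0.45 in WT (SE 0.13, adjusted p = 0.0228). HEMGN decreased by 2.16 in KO (SE 0.55, adjusted p = 0.0144), and its log2 difference of -1.14 in WT was not called (SE 0.48, adjusted p = 0.119). PKLR was not called in KO (log2 -1.31, SE 0.61) or WT (log2 -0.25, SE 0.53). PRDX2 rose by 0.32 in KO (SE 0.07, adjusted p = 0.0031) and by 0.42 in WT (SE 0.07, adjusted p = 0.000181). It was also higher at 264 h than at 72 h in DMSO in every passing pair of the same clone and batch. In batch 1 it went from 96.0 to 120 CPM (A12), 94.5 to 108 (A7) and 123 to 129 (C4). In batch 2 it went from 174 to 201 CPM (F4) and 137 to 153.5 (A12). No test was made between harvests in DMSO. In Aza without the WT pre-treatment libraries, CA2 and PKLR also fell in KO and CA2 in WT, where 26.3% and 26.2% of genes were called in either direction. Without clone A12, 0 members and 779 genes were called in KO, against 4 members and 3770 genes with it, and the log2 differences were -0.85 for TRIM10, -0.74 for CA1, -1.45 for HEMGN and 0.31 for PRDX2.

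The ratio of the carbonic anhydrases varied with clone and with treatment. Per length, CA1 over CA2 was 6.55 in F4 and 13.9 in A12 in Aza at 72 h. In DMSO it was 3.42 (F4, batch 2), 11.6 (A12, batch 1) and 9.24 (A12, batch 2). In WT cells it was 11.4 in A7 and 7.96 in C4 in Aza at 72 h, against 7.37 (A7) and 5.47 (C4) in DMSO. At 264 h it was again higher in Aza in each of the 4 clones, from 6.24 (F4) to 15.3 (A12), against 2.65 (F4) to 10.3 (A12) in DMSO. No test was made of these ratios.

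**Figure D4:**
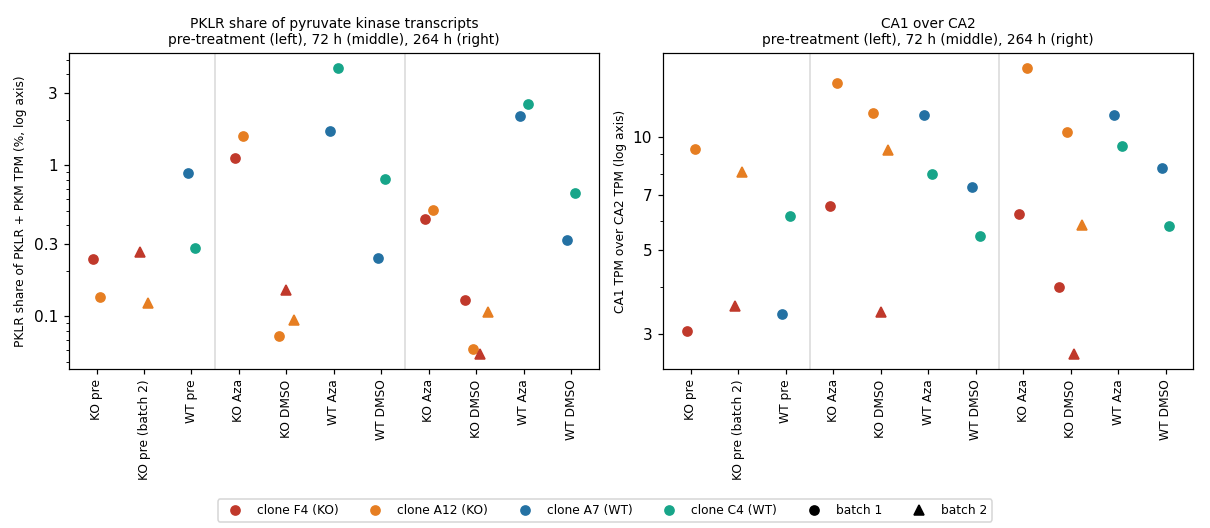
Left, the share of PKLR in PKLR plus PKM transcripts (percent of TPM, log axis); right, CA1 TPM over CA2 TPM (log axis), for each of the 25 libraries by group, colored by clone and shaped by batch. The PKLR share runs from 0.0560% to 4.45% and is higher in Aza than in DMSO within each genotype at both times.

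In DMSO, the change over the culture period was measured from before treatment to 264 h. TRIM58 was the only member called, and in WT alone, where 4.92% of genes were called. It was at 31.7 and 38.6 CPM in WT cells at 264 h, against 25.5 and 26.8 CPM before treatment (log2 0.42, SE 0.10, adjusted p = 0.0192). This value rests on the WT pre-treatment libraries and cannot be had without them. In KO cells, where 3.93% of genes were called, TRIM58 was at 29.2 and 33.3 CPM at 264 h in batch 1, against 21.8 and 25.2 CPM before treatment. In batch 2 it was at 28.1 and 31.3 CPM at 264 h, against 24.8 and 29.9 CPM in the libraries labelled both pre-treatment and DMSO, which overlap. Its log2 difference of 0.34 (SE 0.10) had an adjusted p of 0.0519. With the WT pre-treatment libraries left out that p was 0.0134, and 9.78% of genes were called. DESeq2 called TRIM58 in both genotypes.

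KO clones were compared with WT clones within batch 1, with 2 libraries a side. No member was called in any of these comparisons, which called 0.0543% of genes before treatment, 0.208% for DMSO (264 h), 0.19% for Aza at the earlier harvest and 0.0488% for Aza at the later one. At an unadjusted p under 0.05 in edgeR there were 2, 3, 0 and 4 members, and 1322, 1827, 1566 and 1909 genes, in that order. DESeq2 called 0, 0, 0 and 3 members among 275, 414, 351 and 459 genes. With the spread pooled over all 25 libraries and no clone term, edgeR called 0 members in each, among 306, 503, 291 and 445 genes. That fit counts repeated libraries of the same clones as replicates.

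These comparisons use the same 4 clones, so they are not independent of each other. CA2, PRDX2 and SELENBP1 overlapped between KO and WT in each of the 4. In Aza at 264 h, 4 of 9 members (CA1, PKLR, HEMGN and TRIM58) were lower in KO with no overlap, where 23.3% of genes were, and TRIM10 was higher with no overlap, where 21% of genes were. PKLR differed by a log2 value of -2.08 (SE 0.24, adjusted p = 0.0815), HEMGN by -1.84 (SE 0.38, adjusted p = 0.152) and CA1 by -0.75 (SE 0.11, adjusted p = 0.094), and these are the 3 members DESeq2 called. TRIM58 differed by -0.33 (SE 0.12) and TRIM10 by 0.40 (SE 0.18). In DMSO at 264 h, CA1, PKLR, HEMGN and BPGM were lower in KO with no overlap, where 23.4% of genes were, and TRIM10 was higher, where 21% were. There PKLR was at 0.262 and 0.544 CPM in KO, against 1.24 and 2.70 CPM in WT (log2 -2.23, SE 0.54, adjusted p = 0.207). CA1 was at 175 and 249.7 CPM in KO, against 301 and 312 CPM in WT (log2 -0.52, SE 0.18, adjusted p = 0.416). HEMGN differed by a log2 value of -1.67 (SE 0.85), TRIM10 by 0.40 (SE 0.12) and BPGM by -0.12 (SE 0.12).

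In Aza at 72 h, PKLR and HEMGN were lower in KO with no overlap, where 19.7% of genes were, by log2 values of -1.13 (SE 0.49) and -1.21 (SE 0.59). TRIM10 was higher with no overlap (0.23, SE 0.10), where 20.6% of genes were. Before treatment, CA1, PKLR and TRIM58 were lower in KO with no overlap, where 19.5% of genes were. CA1 was at 228 and 244 CPM in KO, against 275 and 338 CPM in WT (log2 -0.37, SE 0.11, adjusted p = 0.363). PKLR was at 0.550 and 0.927 CPM in KO, against 1.06 and 3.35 CPM in WT (log2 -1.55, SE 0.62, adjusted p = 0.618). TRIM58 differed by -0.14 (SE 0.13). No test was made for DMSO at 72 h, since only 1 KO library of batch 1 passed: CA1 was at 237 CPM in A12 against 263 and 294 CPM in WT, and PKLR at 0.309 CPM against 0.939 and 3.28 CPM.

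The series title speaks of a partial correction by Aza, so KO cells in Aza were set against WT cells in DMSO at 264 h. No member was called, where 0.0737% of genes were, with 0 members and 1706 genes at an unadjusted p under 0.05 and 0 members called by DESeq2. PKLR was at 1.79 and 2.17 CPM in KO cells in Aza, within the 1.24 to 2.70 CPM of WT cells in DMSO. HEMGN was at 1.11 and 2.52 CPM in KO cells in Aza, on either side of the 1.74 and 1.82 CPM of WT cells in DMSO. CA1 was at 243 and 292 CPM, below the 301 and 312 CPM of WT cells in DMSO (log2 -0.19, SE 0.10, adjusted p = 0.577). BPGM was also lower with no overlap (-0.22, SE 0.14), making 2 of 9 members where 22.3% of genes were, and TRIM10 was higher with no overlap (0.29, SE 0.17), where 20.6% were. A p above the threshold with 2 libraries a side does not show that the levels are alike.

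Genes of the same pathways gave a wider view at 72 h. Over all genes tested, 11.6% rose and 8.47% fell in KO, and 9.26% rose and 9.04% fell in WT. Among 10 erythroid transcription factors, 7 rose and 1 fell in KO (median log2 0.63) and 6 rose and 2 fell in WT (0.55). GFI1B, a repressor needed for red cell and platelet formation, rose by 1.39 in KO (adjusted p = 5.66e-07) and 1.15 in WT (adjusted p = 3.71e-06). KLF1, the erythroid Kruppel-like factor, rose by 1.30 in KO (adjusted p = 0.000137) and 0.89 in WT (adjusted p = 0.00166), and NFE2 by 0.99 and 0.96 (adjusted p = 1.28e-09 and 8.9e-10). Of 13 genes of late erythroid remodelling, TRIM58 among them, 4 rose and none fell in each genotype (medians 0.15 in KO and 0.11 in WT). BNIP3L, a receptor for removal of mitochondria, rose by 0.92 in KO (adjusted p = 2.92e-06) and 0.64 in WT (adjusted p = 0.000157). TENT5C, a poly(A) polymerase, rose by 0.91 and 0.75 (adjusted p = 3.64e-07 and 2.99e-06). FOXO3 rose by 0.61 in KO (adjusted p = 1.13e-06), and the autophagy kinase gene ULK1 rose by 0.54 in WT (adjusted p = 0.0164).

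In the enzyme families, called genes went both ways. The shares of all genes given above for 72 h apply to each list. Of 21 genes of glycolysis and the BPGM shunt, 2 rose and 5 fell in KO and 3 rose and 6 fell in WT (medians 0.03 and -0.02), where 8.47% and 9.04% of all genes fell. Apart from PKLR, the aldolase gene ALDOC rose by 0.61 in KO (adjusted p = 0.000121) and 0.39 in WT (adjusted p = 0.00691), the enolase gene ENO3 rose by 0.60 in WT (adjusted p = 0.000294), and the phosphofructokinase gene PFKM fell by 0.41 in KO (adjusted p = 0.00012). Among 10 carbonic anhydrases tested, 2 rose and none fell in KO, and 2 rose and 1 fell in WT (medians 0.14 and -0.02). Besides CA1 these were CA8, which lacks the catalytic activity of its relatives (0.59 in KO, adjusted p = 6.42e-05; 0.28 in WT, adjusted p = 0.0287), and the mitochondrial CA5B (-0.85 in WT, adjusted p = 0.0113). Of 17 genes of peroxide and glutathione defence, 5 rose and 2 fell in KO and 4 rose and 2 fell in WT (medians 0.09 and -0.01), where 11.6% and 9.26% of all genes rose. BLVRB, a flavin and biliverdin reductase of red cells, rose by 0.70 in KO (adjusted p = 0.0285) and 0.65 in WT (adjusted p = 0.0318). Catalase (CAT) rose by 0.47 and 0.45 (adjusted p = 0.00155 and 0.00143), SRXN1 by 0.55 in KO (adjusted p = 0.0137) and GPX1 by 0.30 in WT (adjusted p = 0.00332). At 264 h, 1 gene of these 5 lists was called, where 0.0979% of all genes were in KO and 0.5% in WT. GATA1 rose by 0.37 in WT (adjusted p = 0.0288).

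Markers of blood lineages moved beside the members at 72 h. Of all genes tested, 11.6% rose and 8.47% fell in KO, and 9.26% rose and 9.04% fell in WT. Erythroid markers other than the members rose for 11 of 21 and fell for 1 in KO, and rose for 6 and fell for 1 in WT. Their summed level was 3910 to 4584 CPM in KO cells in Aza, against 2341 to 3031 CPM in DMSO, and 6095 to 6182 CPM in WT cells in Aza, against 4685 to 4722 CPM in DMSO. EPB42, a red cell membrane protein, rose by 2.24 in KO (adjusted p = 9.87e-11) and 1.85 in WT (adjusted p = 7.24e-10). HBE1, embryonic globin, rose by 2.34 and 1.34 (adjusted p = 0.00306 and 0.0248), ALAS2 by 1.88 in KO (adjusted p = 0.0323) and GYPB by 1.64 in WT (adjusted p = 0.0352). Of 8 megakaryocyte markers tested, 3 rose in KO and 6 in WT, with summed levels of 724 to 769 CPM in KO cells in Aza, against 598 to 733 CPM in DMSO, and 662 to 729 CPM in WT cells in Aza, against 541 to 563 CPM in DMSO. The integrin gene ITGB3 rose by 0.94 in KO and 1.19 in WT, and GP6 by 0.68 in KO, and GP9 was also called in WT. GP1BB was at 0 in all 25 libraries, and PF4, PPBP, GP9, VWF and TUBB1 had medians under 1 CPM.

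The same shares of all genes at 72 h apply to the other lineages. Of 13 mast cell, basophil and eosinophil markers tested, 6 rose and 2 fell in KO and 4 rose and 1 fell in WT. Their summed level was 137 to 148 CPM in KO cells in Aza, against 127 to 162 CPM in DMSO, and 66.6 to 67.2 CPM in WT cells in Aza, against 88.0 to 91.3 CPM in DMSO. HDC, which makes histamine, rose by 2.68 in KO and 2.48 in WT, and IL1RL1, a receptor for interleukin-33, rose by 2.77 and 2.13, while PRG2 (KO) and SIGLEC6 (WT) were called at medians under 1 CPM. Of 8 granulocyte and monocyte markers tested, 3 rose and 1 fell in KO and 2 rose and 1 fell in WT. Their summed level was 93.9 to 108 CPM in KO cells in Aza, against 111 to 118 CPM in DMSO, and 88.8 to 95.6 CPM in WT cells in Aza, against 115 to 119 CPM in DMSO. CEBPE and CSF1R rose in both genotypes and CTSG in KO, all at medians under 1 CPM, while ITGAM fell by 0.72 in WT. None of 7 lymphoid markers tested was called, and their summed level was 112 to 176 CPM over all 25 libraries. Hepatocyte markers, included because liver also uses PKLR, summed to at most 9.65 CPM in any library, and 3 of 5 tested were called in WT (SERPINA1, APOB and HNF4A, all higher in Aza and with medians under 1 CPM). The part of these lineage changes in the members' results was not tested, and in bulk samples fewer cells of a type and less RNA per cell cannot be told apart.

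At 264 h, erythroid markers were called for 2 of 21 in KO and 7 of 21 in WT, all higher in Aza. In either direction, 0.0979% of all genes were called in KO and 0.5% in WT. HBE1 rose by 4.11 and 2.52 (adjusted p = 9.09e-05 and 0.00207), and HBA1 by 0.84 in KO (adjusted p = 0.00297). SLC4A1 and HBB rose by 2.16 and 1.80 in WT (adjusted p = 0.00566 and 0.0428), SLC4A1 at a median under 1 CPM. Among the mast, basophil and eosinophil genes, CLC and EPX rose in both genotypes at medians under 1 CPM, and HDC rose by 1.78 in KO.

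Across the 25 libraries, PKLR and HEMGN varied most alike of the 36 member pairs (Pearson r = 0.92 of log2 CPM), followed by CA1 with PKLR (0.84). PRDX2 ran against SELENBP1 (-0.56), BPGM (-0.54) and CA1 (-0.49). These libraries share clones, batches and treatments, so the values describe this set only. The genes whose pattern was most like PKLR were CTSE (0.949), MGAT3 (0.948), ALAS2 (0.937), ACHE (0.935) and PNMT (0.934). For HEMGN they were AQP1 (0.927), OAT (0.918), CPEB4 (0.916), SPTB (0.909) and ANP32B (0.907), the last lying 38505 bases from HEMGN on chromosome 9. For TRIM10 the closest was TRIM15 (0.914), a gene of the same family 2282 bases away on chromosome 6, followed by DNAJC22, IL34, FAM8A1 and SLAMF9 (0.878 to 0.899). TRIM15 rose at 72 h of Aza by 0.79 in KO (adjusted p = 5.72e-07) and 0.83 in WT (adjusted p = 1.21e-07). For CA1 they were ID2 (0.908), NXF3, SPTBN4, SLC25A37 and PHLPP2, and for CA2 they were MSX1 (0.906), ADGRA2, SEPTIN8, DIRAS1 and COL6A1. TRIM58 ran most closely with ERMAP (0.909), ABHD5, PSMD2, KIFC1 and EIF4G1. BPGM ran with TIMM17A (0.871), ADSS2, DDX1, SLC25A32 and HEATR3, and PRDX2 with AP1B1 (0.938), EIF3K, PPP2R1A, PPP1CA and NDUFS7. SELENBP1 had ENSG00000247134 (0.899), COBLL1, OTOG, ZNF808 and XAF1.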

How the data were processed

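Poly(A) RNA was sequenced from TF-1 clones with a stranded kit. The authors deposited whole-number read counts per gene, made with featureCounts 1.6.2 over GENCODE 19 exons of hg19 per the file headers, which record no strand option; STAR 2.6.1d, cutadapt, FastQC and DESeq2 are named in the submitters' processing notes. From the counts, CPM (counts scaled to 1000000 per library with edgeR TMM sizes), TPM over exon lengths and log2 CPM (prior count 2) were computed. Of 26 libraries, 25 passed quality control per the labels and were used. Totals were 24992192 to 40187322 counts.

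Changes were tested with edgeR 4.0.16 (R 4.3.3), robust quasi-likelihood, adjusted p threshold 0.05. Genes passed filterByExpr, leaving 18391. A model of all 25 libraries (group, batch and clone within genotype) gave 10 comparisons, and 5 comparisons of KO with WT were fitted on 2 against 2 libraries of batch 1. Clone names tie libraries to the same cells: same-clone deviations correlated at 0.461 to 0.529 in KO and 0.368 to 0.430 in WT after treatment, but at -0.423 to -0.368 where WT pre-treatment libraries entered. The 18 pairs of libraries within groups included 0 identical pairs, and their lowest chi-square per degree of freedom was 7.49. In simulated counts, Aza against DMSO in KO at 72 h recovered 66% of 2-fold and 86% of 4-fold changes over 17875 genes, with 4.40% false calls. KO against WT before treatment recovered 61% and 94% over 16202 genes, with 15.8% false calls. The simulated counts held no clone or batch differences, and the planted changes were all upward. These rates therefore need not hold for the real libraries.

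The members and gene lists were chosen with earlier results of these data known. The 9 members are named in every comparison. From each of 11 other lists the text gives counts and up to 3 called genes of largest change in Aza against DMSO, and for each member the 5 genes of highest Pearson r. Alternatives were other size factors, no filter, no clone term, leaving out a clone or the WT pre-treatment libraries, batch 1 alone, the failed library added, only the groups compared, and DESeq2 1.42.0. Promoter windows came from RefSeq (GRCh38.p14) and gene positions from the hg19 table, with no conversion between them.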

Additional observations from a re-analysis of the deposited data

How the results depend on the processing

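Of 169 recomputed values for the 17 called member changes, 142 kept their call, 27 lost it and 0 changed sign. Without clone A12, all 9 KO calls were lost, while genes called fell to 411 of 18801 at 72 h and 779 between harvests. Log2 values of CA1 and TRIM10 at 72 h were then 1.19 and 1.00, against 1.31 and 1.05 with both clones. The cause of the shifts below was not tested.

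With DESeq2, the number of members called was 1 in Aza against DMSO in WT at 264 h, 1 in DMSO over time in KO and 3 in KO against WT in Aza at 264 h. Without a filter on low counts it was 4 in KO and 4 in WT for Aza against DMSO at 264 h, 1 in the 72 h interaction, 7 in KO and 5 in WT between Aza harvests, 3 in KO and 3 in WT for DMSO over time, and 2, 4, 1 and 3 in KO against WT (pre-treatment, DMSO 264 h, Aza 72 h and Aza 264 h, in that order). With only the groups compared it was 4 in KO and 6 in WT for Aza against DMSO at 264 h, 7 in KO between Aza harvests, and 2 in KO and 0 in WT for DMSO over time. Without WT pre-treatment libraries it was 1 in KO and 3 in WT for Aza against DMSO at 264 h and 1 for DMSO over time in KO. RLE size factors gave 1 and batch 1 alone 1 in DMSO over time in KO. With the failed library added it was 1 between Aza harvests in WT and 0 in DMSO over time in WT.

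The clone is the replicate block of the main model. With no replicate block, the members called between Aza harvests were 2 in KO and 1 in WT, and 0 in DMSO over time in WT, while BPGM in KO at 72 h was at -0.0029 and PRDX2 in KO at 264 h at 0.01. No paired analysis was possible for KO against WT because each clone has a single genotype.

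BPGM in KO at 72 h, at 0.03 in the model of all libraries, was at -0.02 in batch 1 alone, -0.06 with the failed library and -0.05 with only the groups compared. Leaving out 1 clone at a time, members called ranged from 0 to 4 in KO at 72 h, 1 to 1 in WT at 264 h, 0 to 3 between Aza harvests in KO, 2 to 4 in DMSO over time in WT and, for KO against WT, 0 to 1 (DMSO, 264 h) and 0 to 3 (Aza, 264 h). Log2 differences ranged from -0.14 to 0.08 for PRDX2 in WT at 72 h, -0.07 to 0.04 for PRDX2 in KO at 264 h, -0.04 to 0.34 for TRIM58 in KO at 264 h, -0.08 to 0.01 for CA2 in WT at 264 h, -0.69 to 0.30 for PKLR and -0.25 to 0.29 for SELENBP1 between Aza harvests in WT, and -0.63 to 1.95 for PKLR and -0.49 to 3.22 for HEMGN in the 72 h interaction.

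Genes called over all settings ranged from 411 to 4782 for Aza against DMSO in KO at 72 h and 1089 to 5135 in WT, and from 0 to 172 and 4 to 1162 at 264 h. Between Aza harvests they ranged from 779 to 4853 in KO and 1132 to 5187 in WT, in DMSO over time from 0 to 3504 and 0 to 1842, and in the interactions from 0 to 23 at 72 h and 0 to 13 at 264 h. For KO against WT they ranged from 9 to 785 before treatment, 0 to 1113 (DMSO, 264 h), 8 to 884 (Aza, 72 h) and 8 to 1270 (Aza, 264 h), and 6 to 783 for KO in Aza against WT in DMSO. Depth limits HEMGN, at 2 to 8 counts in clone A12 in DMSO.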
